A study of Mus musculus with 15 samples.

Results

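Leukocytes leave the blood in steps that depend on adhesion molecules at their surface. PSGL-1, the product of Selplg, binds selectins and lets the cell roll along the vessel wall, and integrins, heterodimers of an α and a β chain, then hold it to ligands such as ICAM-1, VCAM-1, MAdCAM-1 and fibronectin. Myeloid cells such as neutrophils, monocytes and dendritic cells carry the αM chain (CD11b, gene Itgam) and the αX chain (CD11c, gene Itgax). Lymphocytes carry the αL chain (CD11a, gene Itgal), the α4 chain (gene Itga4) and the β7 chain (gene Itgb7). The β2 and β1 chains (genes Itgb2 and Itgb1) are carried by cells of both kinds. These 8 genes were taken with Itgb2l, a β2-like gene known as pactolus and expressed in mouse neutrophils, which makes 9 genes of the 55416 gene identifiers in the data, chosen by name, without a threshold on a measured value but with earlier results of these data known. Itgam, Itgax and Itgb2l were treated as the myeloid genes, Itgal, Itga4 and Itgb7 as the lymphoid genes, and Itgb2, Itgb1 and Selplg as shared. This division is a simplification, since myeloid cells also carry chains counted here as lymphoid, αL among them.

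RNA was sequenced from whole blood taken by cheek bleed from 15 female C57BL/6 mice, with libraries taken as 1 per mouse and 5 mice per group. The mice of the early ND and late ND groups received 2 doses of the checkpoint antibody αCTLA-4 and an early or a late neck dissection (ND), the surgical removal of the lymph nodes that drain the oral cavity, and mice of the remaining group were untreated. Orthotopic tongue tumors of 4MOSC1, a single mouse oral squamous cell carcinoma line, were grown for 10 days per the labels, which attach this protocol to the untreated mice as well. The study places the bleed of the late ND mice after the delayed surgery in one passage and before it in another, so "late ND" names a group here and not a state after surgery, and comparisons with the untreated mice cannot tell the antibody apart from any surgery already done.

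The deposited values were counts of reads per gene, 5527108 to 7182346 per library in early ND mice, 7849602 to 13924361 in late ND mice and 5862888 to 10796099 in untreated mice. Levels below are CPM, counts scaled to a common library size after TMM scaling (a correction by edgeR for libraries in which a few genes take many reads), and fold changes are log2 values from the quasi-likelihood test of edgeR. A gene was called where its p, adjusted by Benjamini-Hochberg over every gene of the comparison, was under 0.05. Hemoglobin genes took 14.9 to 29.3% of gene counts in late ND mice against 38.3 to 64.1% in early ND mice and 31.6 to 61.7% in untreated mice. The libraries untreated 2, late 2 and late 3 were poor in 18S ribosomal RNA, and untreated 5, early 3 and late 5 were rich in Scd3, a gene of skin glands. Scaling by library totals in place of TMM moved the median gene by 0.86 on the log2 scale between late and early ND, so changes are given relative to the bulk of genes. Defining markers of neutrophils, monocytes, T cells, B cells and NK cells were present in the libraries, and none of these 5 lists held a gene at 0 in all 15.

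All 9 genes passed the filter on low counts in each comparison. Itgam and Itgb2l, the genes of CD11b and of the β2-like pactolus, were called higher in late than in early ND mice, by 1.92-fold and 3.65-fold. The other myeloid gene, Itgax, and the 6 lymphoid and shared genes were not called. The 2 called members of 9 stand beside 4.98% of all 13315 genes called in this comparison, 2.5% of all genes higher and 2.48% lower. Before adjustment 6 of the 9 members were under 0.05, all higher, with Itgax, Itgal, Itgb2 and Selplg beside the called genes. Among all genes 14.4% were under 0.05 in the higher and 9.33% in the lower direction. Between late ND and untreated mice edgeR called 0 members, where 3% of all 13547 genes were called, and between early ND and untreated mice 0 members, where 0% of 12151 genes were called.

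The promoters of both called genes are given here with that of the lymphoid gene Itgb7. The reason is that PU.1, an ETS factor of myeloid cells, is known to act on the promoters of several β2 integrin genes. Each runs 5′ to 3′ from 250 bases before the RefSeq start of the gene to 50 bases after it, and capitals mark GAGGAA or its reverse complement TTCCTC, a short core that PU.1 and other ETS factors can bind. Itgam lies at chr7:128062390-128062689 on the plus strand, Itgb2l at chr16:96443565-96443864 on the minus strand and Itgb7 at chr15:102231886-102232185 on the minus strand, all in GRCm38.p6.
Itgam: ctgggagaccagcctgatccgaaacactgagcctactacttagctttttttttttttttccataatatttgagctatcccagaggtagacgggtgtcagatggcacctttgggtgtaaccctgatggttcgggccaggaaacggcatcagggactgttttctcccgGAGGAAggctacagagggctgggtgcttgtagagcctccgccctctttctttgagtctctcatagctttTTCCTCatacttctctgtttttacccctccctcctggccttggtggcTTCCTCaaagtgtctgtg
Itgb2l: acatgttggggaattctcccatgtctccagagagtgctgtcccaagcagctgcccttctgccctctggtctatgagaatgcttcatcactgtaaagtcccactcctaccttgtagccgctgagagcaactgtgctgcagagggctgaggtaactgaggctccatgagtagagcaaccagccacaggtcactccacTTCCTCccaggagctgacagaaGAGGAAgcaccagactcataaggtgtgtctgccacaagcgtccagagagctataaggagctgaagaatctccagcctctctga
Itgb7: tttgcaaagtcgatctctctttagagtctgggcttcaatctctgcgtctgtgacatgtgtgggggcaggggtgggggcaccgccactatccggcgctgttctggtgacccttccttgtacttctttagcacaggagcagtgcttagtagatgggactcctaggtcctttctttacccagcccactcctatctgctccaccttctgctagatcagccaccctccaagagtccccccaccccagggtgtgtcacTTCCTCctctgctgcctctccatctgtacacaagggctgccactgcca

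The Itgam promoter held 3 such matches, starting 84 and 15 bases before the start and 32 bases after it. The Itgb2l promoter held 2, at 55 and 33 bases before the start, and the Itgb7 promoter held 1, at 2 bases after it. Of the 6 members matched in the promoter table, Itgb1 also held 1 match, while Itgax and Itga4 had none in these 300 bases. At least 1 match stands in 28.3% of the 32851 promoters of the table. The RUNX core TGTGGT was found once each in Itgax and Itga4 (16.8% of all promoters), the SP1 core GGGCGG once each in Itgam, Itga4 and Itgb1 (35.7%), and the C/EBP core TTGCAA, which reads the same on both strands, once in Itgb7 (6.23%). These are matches of letters on either strand and not measured binding. Itgal, Itgb2 and Selplg had no entry.

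**Figure D1:**
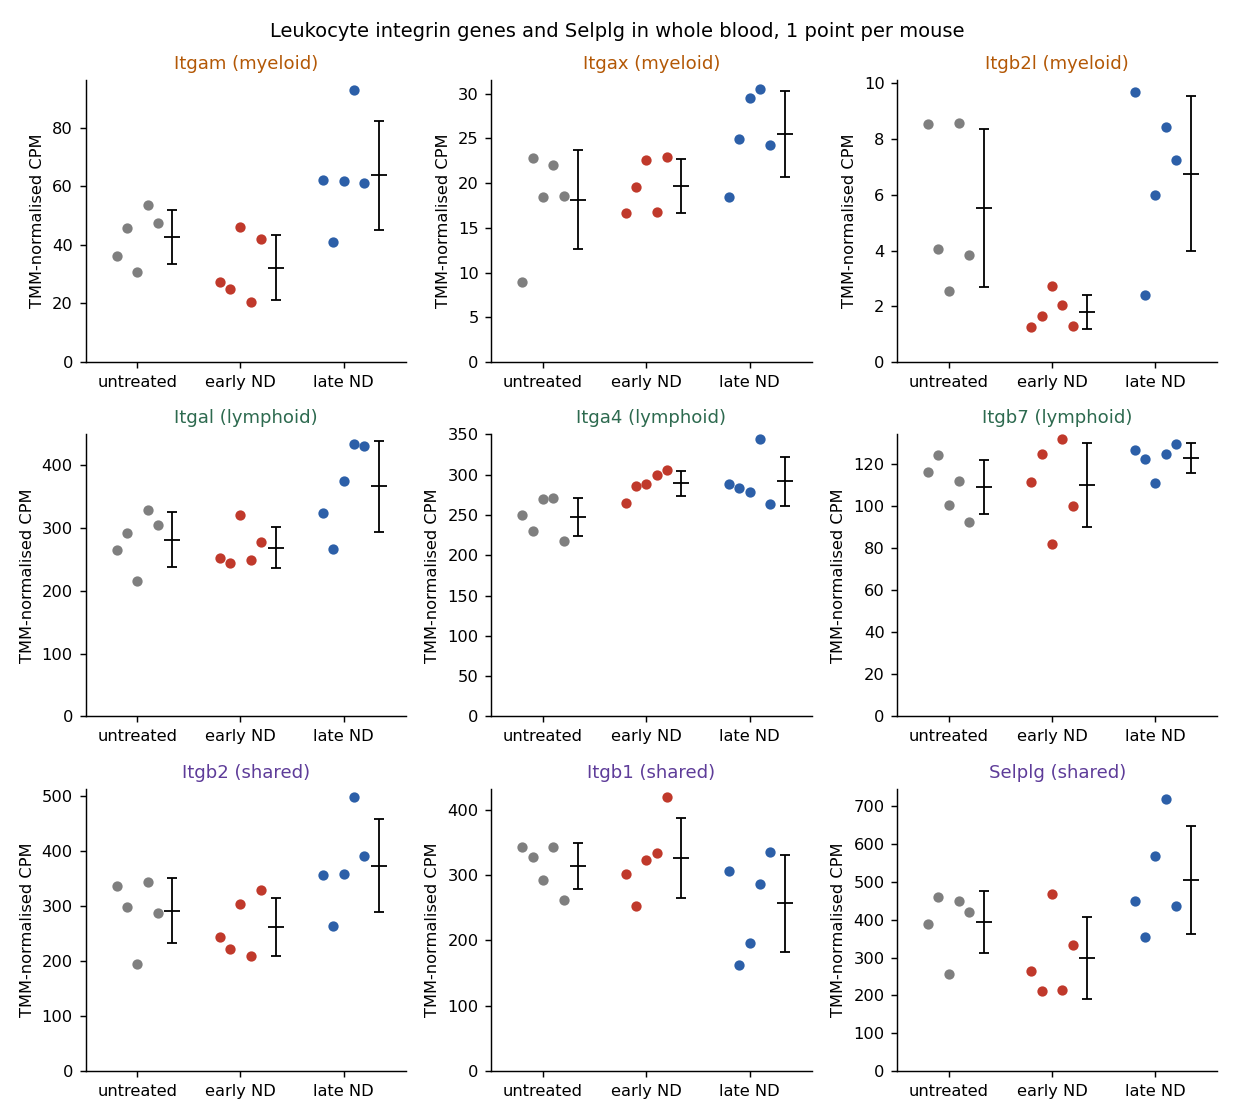
TMM-normalised CPM of each of the 9 genes (vertical axes, each from 0) in untreated, early ND and late ND mice, with 1 point per mouse and the mean ± SD of 5 mice beside the points. For Itgam and Itgb2l, 4 of the 5 late ND mice lie above every early ND mouse, while late and early ND mice lie over each other for Itga4 and Itgb7.

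Itgam encodes the αM chain, which with β2 forms Mac-1, a receptor for ICAM-1, fibrinogen and the complement fragment iC3b. Its level was 62.3, 41.0, 61.8, 92.8 and 61.0 CPM in late ND mice 1 to 5. It was 27.4, 25, 46.0, 20.6 and 42.1 CPM in early ND mice 1 to 5, and 36.1, 45.6, 30.9, 53.6 and 47.6 CPM in untreated mice 1 to 5. Late 4 was the highest of all 15 mice, late 2 lay among the early and untreated mice, and the other 4 late ND mice were above every mouse of both other groups. The difference between late and early ND was 0.94 on the log2 scale (SE 0.25, n = 5 per group, edgeR, adjusted p = 0.0492). Against untreated mice it was 0.52 in late ND mice (SE 0.20, edgeR, adjusted p = 0.207) and -0.40 in early ND mice (SE 0.22, edgeR, adjusted p = 0.938).

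The call of Itgam lay close to its threshold. It was lost without any one of early 1, 2 or 4 or late 1, 3, 4 or 5 (log2 fold change 0.74 to 0.95, edgeR, adjusted p from 0.0764 to 0.133), without the libraries poor in 18S (1.11, edgeR, adjusted p = 0.0561), with DESeq2 size factors (0.92, edgeR, adjusted p = 0.0588) and with TMM factors taken without hemoglobin and 18S genes (0.93, edgeR, adjusted p = 0.0533). Itgam spans chr7:127661808-127717753 on the plus strand of GRCm39, and 67.4% of its 5118 exonic bases are shared with Gm49368, a readthrough gene of the same strand that had 0 to 38 counts per library. Itgam itself had 60 to 337 counts in early ND mice and 680 to 1408 in late ND mice, and how reads in the shared bases were assigned is not given in the sources used here.

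Itgb2l had the lowest level of the 9 genes, also per kilobase, and the largest fold change of them between late and early ND. Late ND mice 1 to 5 had 9.71, 2.42, 6.01, 8.44 and 7.26 CPM. Early ND mice had 1.26, 1.63, 2.73, 2.06 and 1.28 CPM, and untreated mice had 8.55, 4.06, 2.55, 8.57 and 3.84 CPM. Late 2 alone lay within the early ND range, and the other 4 late ND mice were above it. Untreated and late ND mice covered nearly the same range, and 4 of the 5 early ND mice lay below every untreated mouse. These levels rest on 6 to 20 counts per library in early ND mice, 9 to 58 in untreated mice and 57 to 137 in late ND mice.

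The difference of Itgb2l between late and early ND was 1.87 on the log2 scale (SE 0.38, n = 5 per group, edgeR, adjusted p = 0.0225). It kept a size of 1.69 to 2.12 with each mouse left out in turn, but the call was lost without early 4, late 3, late 4 or late 5 (edgeR, adjusted p from 0.0502 to 0.0582). Late ND and untreated mice differed by 0.27 (SE 0.40, edgeR, adjusted p = 0.803). Early ND and untreated mice differed by -1.57 (SE 0.38), which did not pass over all genes tested (edgeR, adjusted p = 0.938). Both comparisons of the early ND mice use the same 5 libraries. Itgb2l lies at chr16:96223488-96244841 on the minus strand of GRCm39, and the exons of Itgb2 and Itgb2l share no word of 50 bases and 1 word of 25.

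Itgax encodes the αX chain of dendritic cells and monocytes and starts 10.9 kb after the end of Itgam on chromosome 7, at chr7:127728668-127749829 of GRCm39. Its level was 25.5 ± 4.82 CPM in late ND mice, 19.7 ± 2.99 CPM in early ND mice and 18.1 ± 5.52 CPM in untreated mice (SD, n = 5 each). The ranges overlapped, from 18.4 to 30.5 CPM in late ND, from 16.6 to 22.9 CPM in early ND and from 8.93 to 22.8 CPM in untreated mice. The difference of 0.34 between late and early ND had an SE of 0.16 and was not called (edgeR, adjusted p = 0.207). Between late ND and untreated mice it was 0.42 (SE 0.20, edgeR, adjusted p = 0.324).

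None of the 3 lymphoid genes was called in any of the 3 comparisons. Itgal encodes αL, which with β2 forms LFA-1, the receptor by which T cells hold to ICAM-1. It had 366 ± 71.9 CPM in late ND mice, 268 ± 32.1 in early ND mice and 281 ± 43.8 in untreated mice (SD, n = 5 each). Late 2, at 266 CPM, lay within the early ND range of 244 to 321 CPM, and the other 4 late ND mice, from 323 to 434 CPM, lay above it. The difference of 0.41 (SE 0.16) was not called (edgeR, adjusted p = 0.144). Itgal lies 727 kb before Itgam, at chr7:126895432-126934320 of GRCm39.

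Itga4 and Itgb7 encode chains that pair as α4β7, the receptor for MAdCAM-1 of gut vessels. Itga4 had 292 ± 30.7 CPM in late ND mice, 289 ± 15.9 in early ND mice and 248 ± 23.6 in untreated mice (SD, n = 5 each), with a log2 difference of -0.02 between late and early ND (SE 0.12, edgeR, adjusted p = 0.95). The sign of this small difference is not fixed, since it was 0.06 without the filter on low counts. Itgb7 had 123 ± 7.23, 110 ± 19.9 and 109 ± 12.7 CPM in the same order, and the log2 difference between late and early ND was 0.13 (SE 0.13, edgeR, adjusted p = 0.606). Late ND mice spanned 111 to 130 CPM and early ND mice 81.8 to 132 CPM, so the late ND range lay inside the early ND range. Of the exonic bases of Itga4, 20.8% lie opposite Cerkl, and the strand setting of the counting is not given in the sources used here. Cerkl had 37.6 to 53.4 CPM over the 15 libraries, and Itga4 had 218 to 344.

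Of the shared chains, Itgb2 and Itgb1 differed in the direction of their values. Itgb2, whose product CD18 is needed by every β2 integrin, had 357, 264, 359, 499 and 391 CPM in late ND mice 1 to 5 and 244, 222, 304, 208 and 330 CPM in early ND mice 1 to 5. Untreated mice had 336, 299, 194, 343 and 288 CPM. All late ND mice but late 2 were above every mouse of the other groups. The difference of 0.48 between late and early ND (SE 0.19) was not called (edgeR, adjusted p = 0.15).

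Itgb1 encodes the β1 chain, which is found on nearly all cells and, in blood, on platelets as well as lymphocytes and monocytes. It had 306, 163, 195, 287 and 335 CPM in late ND mice 1 to 5, 301, 252, 323, 333 and 419 CPM in early ND mice and 343, 327, 293, 343 and 261 CPM in untreated mice. Late 2 and late 3, both poor in 18S, were the lowest of all 15 mice, and the other 3 late ND mice lay within the range of the early ND mice. The difference of -0.38 (SE 0.21) was not called (edgeR, adjusted p = 0.306). Without the libraries poor in 18S it was -0.13 (edgeR, adjusted p = 0.706). With library totals it was 0.48, below the shift of the median gene.

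Selplg, the gene of PSGL-1, had 451, 354, 569, 721 and 435 CPM in late ND mice 1 to 5, 266, 212, 469, 214 and 333 CPM in early ND mice and 388, 460, 256, 449 and 420 CPM in untreated mice. Late 3 and late 4 were above all other mice, and early 3 lay within the late ND range, in which 2 of the 5 late ND mice exceeded every early ND mouse. The difference of 0.73 between late and early ND (SE 0.26) was not called (edgeR, adjusted p = 0.11). It was called without early 3 alone (0.95, edgeR, adjusted p = 0.0252) and without the 3 libraries rich in Scd3 (0.98, edgeR, adjusted p = 0.0367), one of which is early 3. Leaving out these 3 was chosen after seeing the data.

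**Figure D2:**
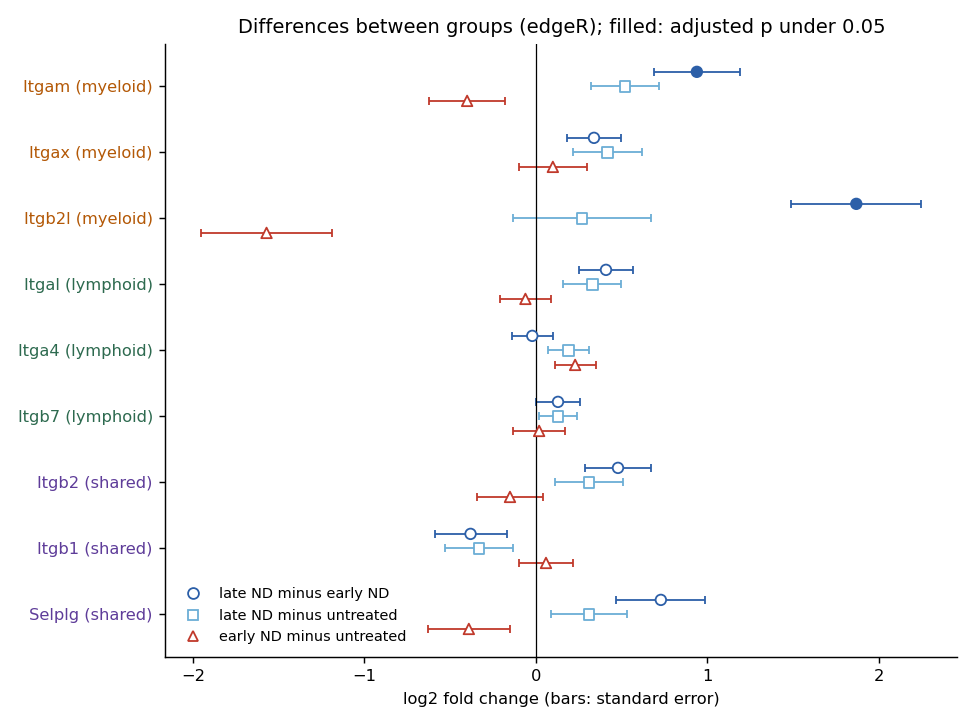
Log2 fold change of each gene (horizontal axis) in the 3 comparisons, with bars of 1 standard error and filled symbols where the adjusted p of edgeR was under 0.05. The 2 filled symbols are Itgam at 0.94 and Itgb2l at 1.87 between late and early ND, and the triangles of early ND against untreated mice lie between -1.57 and 0.23.

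By group of genes, 3 of 3 myeloid, 2 of 3 lymphoid and 2 of 3 shared genes had positive log2 values between late and early ND, of which 2, 0 and 0 were called. The median was 0.94 for the myeloid, 0.13 for the lymphoid and 0.48 for the shared genes, against 0.01 for all genes tested. Between late ND and untreated mice the medians were 0.42, 0.19 and 0.31 with no call (all genes, 0.989% called higher and 2.01% lower). Before adjustment 1 member, Itgam, was under 0.05, as were 8.69% of all genes in the higher and 8.28% in the lower direction. DESeq2 called none of the members there. Between early ND and untreated mice the medians were -0.40, 0.02 and -0.15, again with no call, and DESeq2 called 0 genes as well. At an unadjusted p under 0.05 edgeR had 256 genes higher (2.11%) and 283 lower (2.33%), the latter including Itgb2l.

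Ratios between 2 genes of the same library cannot be moved by the scaling of libraries, and they are given as a description with no test. The log2 ratio of Itgam to Itgal was -2.38, -2.70, -2.60, -2.22 and -2.82 in late ND mice 1 to 5 and -3.20, -3.28, -2.80, -3.58 and -2.72 in early ND mice 1 to 5. Untreated mice were close together, from -2.86 to -2.62. Late and early ND mice differed by 0.57 in this ratio, where the pooled SD was 0.30, and 4 of 5 late ND mice were above every early ND mouse. Early 3 and early 5 lay among the late ND mice, and late 5 lay among the early ones.

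The ratio of Itgb2l to Itgal did not overlap between early ND mice, from -7.64 to -6.80, and late ND mice, from -6.77 to -5.05. The gap between these ranges was narrow, and the untreated mice, from -6.32 to -4.92, also lay above every early ND mouse. Of the 9 ratios of a myeloid to a lymphoid gene, late and early ND mice overlapped in the other 8, and no background share was computed for ratios. Itgax to Itgal differed by only -0.07 between late and early ND, with a pooled SD of 0.24, beside 0.57 for Itgam and 1.33 for Itgb2l.

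Among the β chains, the log2 ratio of Itgb2 to Itgb1 was 0.23 to 0.88 in late ND mice, -0.68 to -0.09 in early ND mice and -0.59 to 0.14 in untreated mice. All 5 late ND mice were above every mouse of the other groups, with a difference of 0.88 from early ND at a pooled SD of 0.27. This ratio was chosen after the levels had been seen. Within the β2 integrins, Itgam to Itgb2 was higher by 0.49 in late than in early ND mice (pooled SD 0.18, 5 of 5 mice above every early ND mouse), and Itgal to Itgb2 differed by -0.08 (pooled SD 0.17). Selplg to Itgal was higher by 0.36 at a pooled SD of 0.30, with overlap. Itgam to Itgb2, Itgal to Itgb2 and Selplg to Itgal were also not among the planned ratios of a myeloid to a lymphoid gene. No share of gene pairs that separate in this way was computed.

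**Figure D3:**
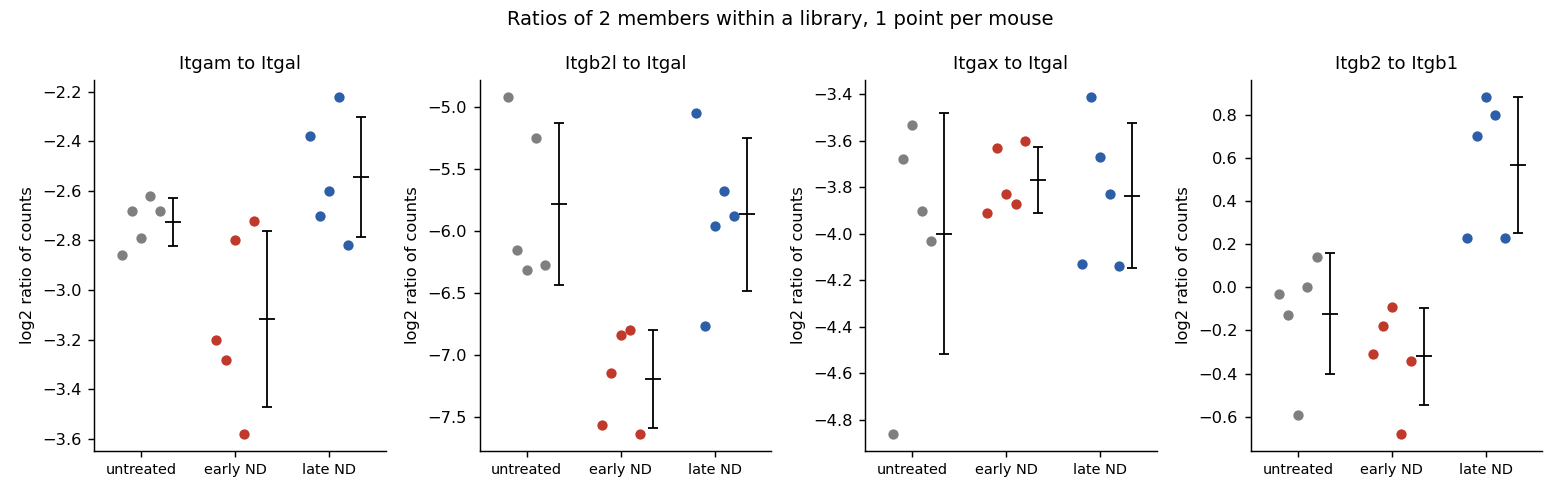
Log2 ratio of the counts of 2 genes within a library (vertical axes, which do not start at 0) in untreated, early ND and late ND mice, with 1 point per mouse and the mean ± SD of 5 mice. Late and early ND mice do not overlap for Itgb2l to Itgal and for Itgb2 to Itgb1, and they overlap for Itgam to Itgal and Itgax to Itgal.

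Levels of different genes were compared as CPM per kilobase of merged exon, within each group. In late ND mice Selplg had 118 ± 33.3 and Itgb2 115 ± 26 CPM per kilobase (SD, n = 5 each), and Selplg was the higher in 3 of 5 mice, so these top levels did not differ beyond their spread. Itgal followed with 55.6 ± 10.9, Itgb1 with 43.0 ± 12.4 and Itgb7 with 42.3 ± 2.49 CPM per kilobase, and Itgb1 was above Itgb7 in 3 of 5 mice. Itga4 had 17.4 ± 1.84, Itgam 12.5 ± 3.63, Itgax 5.26 ± 0.99 and Itgb2l 1.56 ± 0.64 CPM per kilobase, each above the next in 5 of 5 mice. In early ND mice Itgb2, at 80.7 ± 16.3 CPM per kilobase, stood above Selplg, at 69.8 ± 25.1, in 4 of 5 mice. Itgb1, at 54.6 ± 10.2 CPM per kilobase in early ND and 52.5 ± 6.00 in untreated mice, ranked directly below Itgb2 and Selplg in both groups, above Itgal. The order depends on the length used, and the alternatives were added after seeing the data. Per kilobase of the canonical transcript Selplg had 270 ± 76.0 CPM in late ND mice and was first in all 5. With all its counts divided by only the bases not shared with Gm49368, Itgam had 38.2 ± 11.1 CPM per kilobase, above Itga4. That level holds only if no read in the shared bases was counted for Itgam, which is not known.

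Blood cell RNA moved together with some of these genes. In whole blood, fewer cells of a type and less RNA per cell cannot be told apart. All 8 neutrophil marker genes had positive log2 values between late and early ND (median 1.23), of which 1, Mmp8, was called. Their summed level was 6172 to 15640 CPM in late ND, 2335 to 7616 CPM in early ND and 4461 to 11960 CPM in untreated mice. Itgam was 0.52 to 0.77% of this sum in late ND mice, 0.60 to 1.07% in early ND mice and 0.40 to 0.69% in untreated mice, so relative to neutrophil RNA the late and early ND ranges overlapped. Itgb2l was 0.04 to 0.09% of the sum in late ND mice and 0.02 to 0.07% in early ND mice, again with overlap. The part of neutrophil RNA in the differences of Itgam and Itgb2l was not tested.

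Of the 8 monocyte markers 6 had positive values (median 0.32) and 1, Csf1r, was called, with sums of 663 to 1034 CPM in late ND and 451 to 941 CPM in early ND mice. All 8 T cell markers (median -0.26), all 8 B cell markers (median -0.38) and all 7 NK cell markers (median -0.24) had negative values, and none was called. T cell sums were 220 to 278 CPM in late ND, 199 to 323 CPM in early ND and 277 to 400 CPM in untreated mice. Between late ND and untreated mice all 8 T cell markers were negative as well (median -0.42), and 1, Cd3g, was called (-0.63, SE 0.13, edgeR, adjusted p = 0.0274). In that comparison 2.01% of all genes were called lower, and 0 genes were called without the libraries poor in 18S. Without untreated 3 or without any one late ND mouse, 0 genes were called lower. The B cell and NK cell medians there were -0.16 and -0.18, with no call. Monocyte markers went the other way there, with 7 of 8 positive (median 0.53) and 1, Csf1r, called (0.73, SE 0.16, edgeR, adjusted p = 0.0322). The neutrophil median there was 0.36 and the platelet median -0.47, both with no call. The erythroid median there was -2.56, with 3 called lower. Itgb7 was 44.0 to 58.7% of the T cell sum in late ND mice, 36.7 to 41.2% in early ND mice and 29.9 to 38.4% in untreated mice. The CPM of Itgb7 itself overlapped between late and early ND mice. The share of all genes that separate in this measure was not computed. Itgal, at 95.5 to 195% against 76.2 to 162%, and Itga4, at 102 to 148% against 87.0 to 145%, overlapped between late and early ND mice. All 7 platelet markers tested were negative (median -0.46), with 1 called, Gp6, and Gp1bb was at 0 in every library. Their sums were 1611 to 2209 CPM in late ND mice and 1814 to 3674 CPM in early ND mice. The sums were 1611 and 2039 CPM in late 2 and late 3, the mice lowest in Itgb1. They were 1867, 1783 and 2209 CPM in late 1, 4 and 5. The 7 erythroid markers were negative (median -2.38), with 4 called. The other markers are named here after their values were seen.

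**Figure D4:**
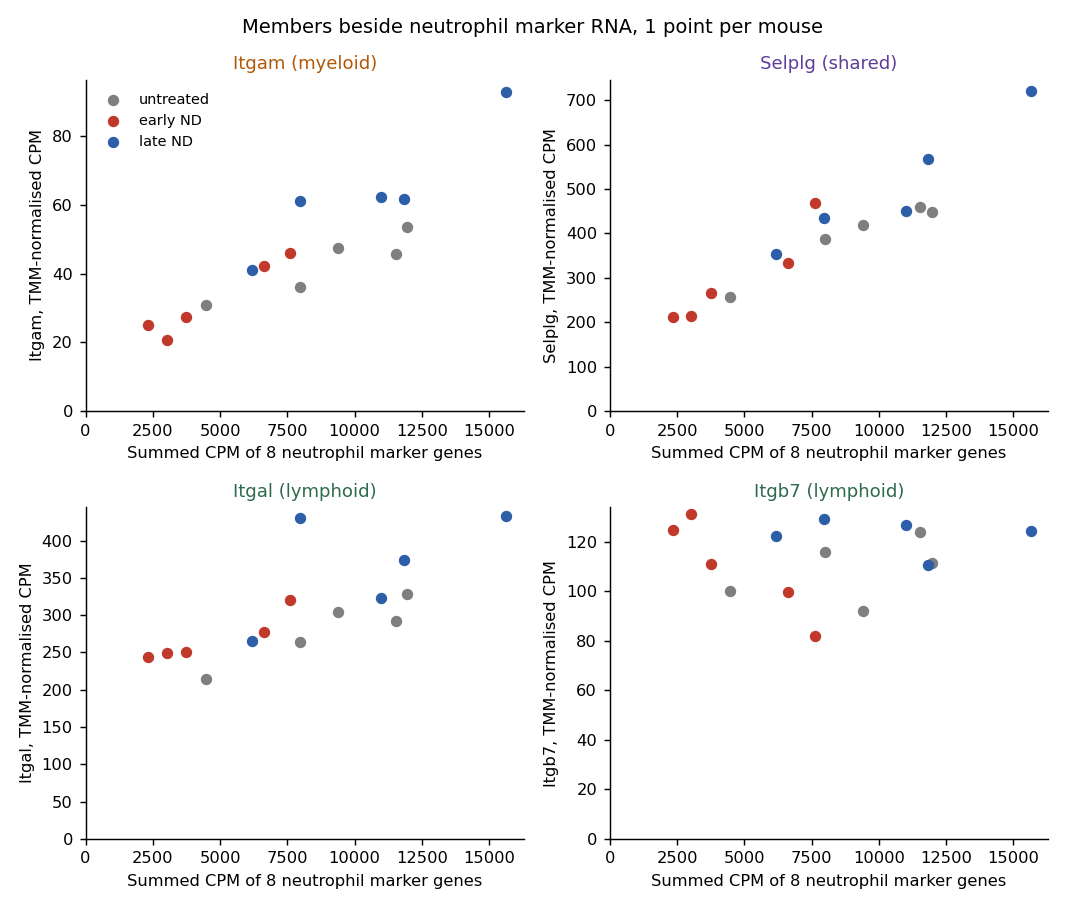
TMM-normalised CPM of Itgam, Selplg, Itgal and Itgb7 (vertical axes, from 0) against the summed CPM of the 8 neutrophil marker genes (horizontal axis) in the same library, with 1 point per mouse. Itgam and Selplg are lowest in the mice with the least neutrophil marker RNA, early 2 and early 4, and highest in late 4 with 15640 CPM, whereas Itgb7 stays between 81.8 and 132 CPM.

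The genes whose log2 CPM ran closest to a member over the 15 libraries were taken from 7285 genes with a mean of at least 10 CPM. For Selplg they were Hp (Pearson's r = 0.990), Siglece (0.987) and Ggt5 (0.986), and for Itgam they were Cfp (0.980), Ptpn1 (0.978) and Ugt1a7c (0.978). Itgb2l ran closest to Klhdc4 (0.883), Rab3d (0.877) and Cd177 (0.876), the last a surface protein of neutrophils. Itgb2 ran closest to Emilin2 (0.969), Hcls1 (0.963) and Dhx38 (0.959). Itgal had N4bp1 (0.955), Lrp10 (0.940) and Notch2 (0.936), and among those nearest to Itgax were Bloc1s2 (0.903) and Dap3 (0.902). Among those nearest to Itgb1 were Pros1 (0.931) and Gm26586 (0.897), Itgb7 had Esyt1 (0.879), Snrpa (0.868) and Srebf2 (0.822), and Itga4 had the weakest companions, Plagl2 (0.809), Nin (0.770) and Peak1 (0.763). No member was among the 3 nearest genes of another. These values are descriptions over libraries that share groups, scaling and cell composition.

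Genes that act with the members were read from 5 lists of 86 genes, of which 71 were tested between late and early ND, 4 rose and 2 fell (median 0.22, against 0.01 for all genes), where 4.98% of all genes were called. The 6 calls became 0 without the libraries poor in 18S, 2 without any one of early 1, 2 or 4 or late 3, 4 or 5, 3 without late 1, 11 without late 2 and 15 without early 3. Among 12 tested of 19 other integrin subunits, Itga5, whose α5 chain pairs with β1 as a fibronectin receptor, rose by 0.88 (SE 0.20, edgeR, adjusted p = 0.0304), and Itga2, whose α2 chain pairs with β1 as a collagen receptor of platelets, fell by 0.91 (SE 0.16, edgeR, adjusted p = 0.0126). The 18 genes that regulate the activation of integrins held both activators and inhibitors, Sharpin and Itgb1bp1 among the latter. Of these 18, none was called by edgeR, and 3 were under an unadjusted p of 0.05. The smallest p-values there belonged to Apbb1ip, which encodes the Rap1 effector RIAM (0.50, SE 0.13, edgeR, adjusted p = 0.0516), and Tln1, which encodes talin (0.41, SE 0.17, edgeR, adjusted p = 0.156). Apbb1ip had 88.3 ± 16.7 CPM in late ND and 61.0 ± 5.02 CPM in early ND mice (SD, n = 5 each), with all 5 late ND mice above every early ND mouse. The share of all genes that separate in this way was not computed.

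Among 14 genes that signal behind bound integrins, 13 had positive values (median 0.47), and 1, Pxn, which encodes the adaptor paxillin, rose by 0.85 (SE 0.22, edgeR, adjusted p = 0.0436). Before adjustment 10 of the 14 were under 0.05, all higher, against 14.4% of all genes in the higher and 9.33% in the lower direction. Among 17 selectin and PSGL-1 glycosylation genes (median 0.36), 1 was called. This was St3gal4, a sialyltransferase that helps build selectin ligands on PSGL-1, which rose by 0.83 (SE 0.20, edgeR, adjusted p = 0.0354) beside the uncalled 0.73 of Selplg itself.

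Among 10 tested of 18 ligand genes, Fn1, which encodes fibronectin, a ligand of α4β1, rose by 1.64 (SE 0.25, edgeR, adjusted p = 0.0126). It had 161, 140, 180, 220 and 334 CPM in late ND mice 1 to 5 and 40.2 to 84.0 CPM in early ND mice. These ranges did not overlap, and the share of all genes without overlap was not computed. Fn1 was also higher in late ND than in untreated mice by 1.76 (SE 0.40, edgeR, adjusted p = 0.0403). Pecam1, an adhesion molecule of platelets, leukocytes and vessels, fell by 0.53 between early and late ND (SE 0.14, edgeR, adjusted p = 0.0454). Thy1, a T cell surface protein that binds Mac-1, fell by 0.59 from untreated to late ND mice (SE 0.11, edgeR, adjusted p = 0.0242). Fn1 and Thy1 were the 2 of 71 tested list genes called in that comparison, where 3% of all genes were called, and 0 were called without the libraries poor in 18S, without untreated 3 or without any one late ND mouse. Between early ND and untreated mice edgeR called none of 69, with 1 under an unadjusted p of 0.05.

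**Figure D5:**
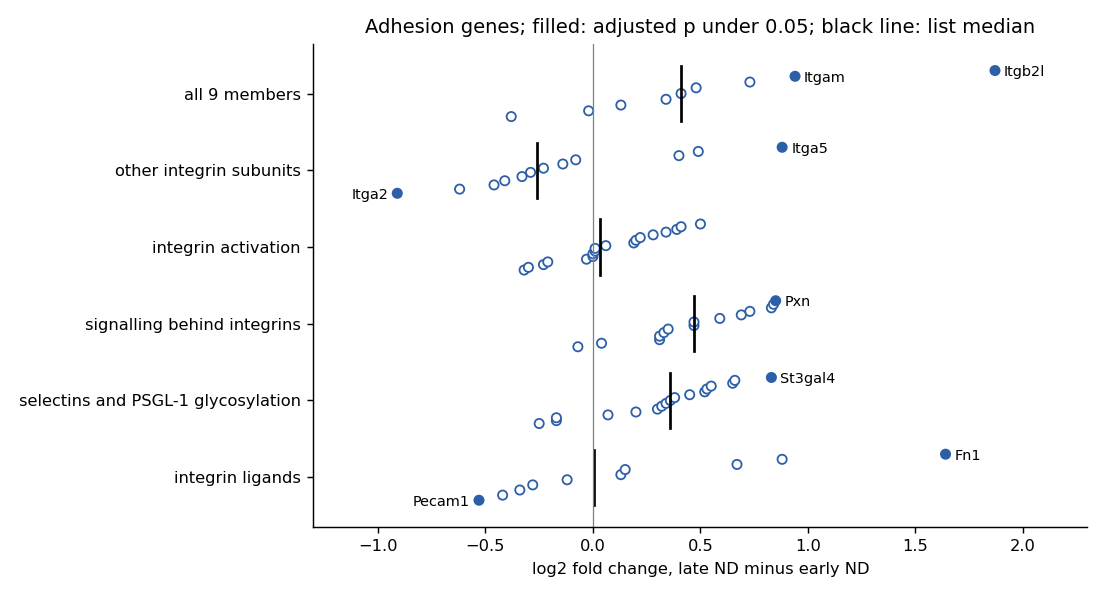
Log2 fold change between late and early ND (horizontal axis) of the 9 members and of the tested genes of the 5 adhesion lists (rows), with 1 point per gene, filled where the adjusted p of edgeR was under 0.05, and a black line at the median of each row. Itgb2l at 1.87 and Fn1 at 1.64 lie farthest to the right, Itga2 at -0.91 farthest to the left, and the genes of integrin activation center near 0.04.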

How the data were processed

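RNA of 15 whole blood samples was sequenced. The authors deposited raw counts per Ensembl gene, made per the labels with STAR 2.7.9, SAMtools 1.7 and HTSeq-count 0.13.5. The labels list both mm10 and GRCm39; annotation release, strand setting and counting mode are not given in the sources used here. Of 55416 identifiers, 54749 matched GENCODE vM39 (GRCm39), the source of gene coordinates, and promoters came from RefSeq (GRCm38.p6). The members and lists were chosen with earlier results of these data known.

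Each pair of groups was fitted alone in edgeR 4.0.16 (R 4.3.3) with filterByExpr, TMM and the quasi-likelihood test, two-sided. CPM used TMM factors over all 15 libraries, and ratios added 0.5 to each count. On simulated late and early ND counts of 13245 genes, 196 of 200 genes changed by 2 on the log2 scale were recovered, with 5 false calls. The simulation held no smaller changes and no shift in hemoglobin, so it does not show how often changes of the size seen in the members would be recovered. DESeq2 1.42.0, other scalings and filters, a replicate block and each mouse left out were alternatives. Libraries were taken as 1 per mouse, which the labels do not state outright, and p-values otherwise cover only the spread between samples. Named genes were all members and, per list, up to 5 called between late and early ND by size, or the 2 of smallest p where none was called, with any list gene called in another comparison. The symbol Fyb was read as Fyb1, and Ahsp was not matched. A few genes that these rules would name are not reported here.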

Additional observations from a re-analysis of the deposited data

Results flagged for a closer look

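In 66 groups of 5 mice, covering the CPM of the members and the ratios between them, the lowest and highest mouse were compared with the others by Dixon's test (critical value 0.71), and 3 groups had a mouse that stood apart. Chance alone flags about 1 in 20 groups, which is close to the number seen. The log2 ratio of Itgax to Itgb7 was -3.67 in untreated 1 and -2.44 to -2.31 in the other untreated mice. The log2 ratio of Itgam to Itgb2 was -3.21 in the same mouse and -2.71 to -2.59 in the others. The log2 ratio of Itgb2l to Itgb7 was -5.65 in late 2 and -4.20 to -3.70 in the other late ND mice. No mouse stood apart in the CPM of any single member.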

How the results depend on the processing

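Between late and early ND, where 663 genes, 2 members and 6 list genes were called, library totals gave 9060, 8 and 58, and moved Itga4 to 0.837 and Itgb1 to 0.477. DESeq2's Wald test gave 1439 genes and 17 list genes, no low-count filter 1282 and 14 (Itga4 0.060), and 1 fit of all 15 libraries 10 list genes. Members called fell to 1, with Itgam lost, under DESeq2 size factors, TMM without hemoglobin and 18S and the replicate block (Itgam 0.941, edgeR, adjusted p = 0.0531), and to 1 with at least 10 counts in every library, which left Itgb2l untested. Without the libraries poor in 18S, 4 genes, 1 member and 0 list genes were called, and without those rich in Scd3, left out after seeing the data, 1214 genes and 12 list genes (Itgb7 -0.009). Leaving out 1 mouse gave 145 to 1610 genes, 0 to 3 members and 2 to 15 list genes, and Itga4 from -0.117 to 0.012. Between late ND and untreated mice, where 406 genes, 0 members and 2 list genes were called, library totals gave 7574, 8 and 55 (Itgb1 0.569), the Wald test 808 genes and 7 list genes, no filter 4 list genes, the block 5, the set poor in 18S 0 genes and 0 list genes, that rich in Scd3 1 list gene, and 1 mouse left out 0 to 593 genes and 0 to 4 list genes. Between early ND and untreated mice library totals called 3 genes in place of 0, and with 1 mouse left out the fold changes of Itgax (-0.045 to 0.196), Itgb7 (-0.059 to 0.111), Itgal (-0.144 to 0.004) and Itgb1 (-0.047 to 0.141) crossed 0. The cause was not tested, beyond the fewer mice. Higher against lower calls between late and early ND were 333 to 330, and 8923 to 137 with totals, 201 to 338 with DESeq2 size factors and 228 to 344 without hemoglobin and 18S. Same-numbered mice of late and early ND correlated above 0.1 in 1 of 5 pairs, and those of early ND and untreated mice in 0 of 5. The number was therefore not taken to pair mice across groups. Those of late ND and untreated mice did so in 4 of 5 pairs (mean r 0.31), and 2 of 5 late ND mice were closest to their own number. For that comparison this check does not settle whether the number pairs the mice. The block gave 673 genes between late and early ND and 607 between late ND and untreated mice, and the block changed no other member's call. All differences of ratios of a myeloid to a lymphoid gene kept their sign or stayed within 1 SD. The other ratios, Itgb2 to Itgb1 and Itgam to Itgb2 among them, were not recomputed under these settings. Itgb2l rests on as few as 6 counts per library.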
